A study of Urocitellus parryii with 3 samples.

Results

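miR-378 and miR-378* are the mature products of the opposite arms of a single miRNA hairpin. In the mouse this hairpin lies in an intron of Ppargc1b, the gene of the mitochondrial coactivator PGC-1β. The members were the array entries mmu-miR-378 and mmu-miR-378*, 2 of 567 mouse miRNA entries. They were chosen by their intensities on the same arrays, where the arms changed unequally between stages. All values below are therefore a description, with no test.

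Each array held liver RNA of arctic ground squirrels (Urocitellus parryii), a hibernator, as an equal mix of total RNA from animals of the same stage. The stages were early arousal, in which the animal rewarms, late torpor, in which body temperature and metabolism are low, and post-reproduction, outside the hibernation season. There was 1 pool on 1 array per stage, so stage, pool and array cannot be told apart and no value has a replicate between animals. The number of animals in a pool, their age and their sex are not given in the sources used here.

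A miRNA hairpin is cut into a duplex of which a single strand usually stays bound to an Argonaute protein and guides it to mRNAs. The strand named with a star is the arm found less often, and it is degraded sooner in most tissues. In current names miR-378 is miR-378a-3p and miR-378* is miR-378a-5p. Both arms are known from mouse and human work as regulators of energy metabolism that are made together with PGC-1β, a coactivator of mitochondrial and fatty acid genes. In mice, loss of both strands was reported to raise oxidative metabolism and to protect against diet-induced obesity. In that mouse work the carnitine acetyltransferase Crat was described as a target of miR-378 and the Mediator subunit Med13 as a target of miR-378*. Other targets described for miR-378* are the nuclear receptor ERRγ and the transcription factor GABPA (human breast cancer cells).

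Each arm had 2 probes on the array, with 10 spots per probe, or 40 spots for both arms on each array. The files place the targets of these probes on mouse chromosome 18 (mm9), the build for which the array was annotated. For miR-378 they run from 61557492 to 61557504 (13 bases) and from 61557492 to 61557505 (14 bases). For miR-378* they run from 61557529 to 61557545 (17 bases) and from 61557529 to 61557546 (18 bases). The probes of an arm thus share an end and differ by 1 base at the other, and they are called the shorter and the longer probe here. The targets of the arms do not overlap and lie 23 bases apart. The probes were designed for mouse, and their match to the squirrel miRNAs was not examined here.

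The intensity units are those of the scanner program after it subtracted a fitted background surface. The 672 negative control spots had a median of 1.36 units on the early arousal array, of 1.69 on the late torpor array and of 1.21 on the post-reproduction array. The dimmest spot called well above background had 10.1, 8.49 and 10.7 units in the same order of stages. The brightest of 10 viral entries, mghv-miR-M1-2, which marks what an entry without its target can give, had 22.2, 26.5 and 26.6 units. As a check of the tissue, all 7 hepatocyte miRNAs of the list used here were measured on all 3 arrays, among them miR-122, the main miRNA of hepatocytes. A miRNA is called measured where a probe of it was detected on every array, which asks that the program mark over 50% of the probe's spots, outliers aside, as well above background. This held for 135 mouse miRNAs, both arms of miR-378 among them. Both miR-378 probes counted, but of miR-378* only the longer one did.

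miR-378 was dimmest in early arousal, somewhat brighter in late torpor and by far the brightest in post-reproduction. On the longer probe the 9 kept spots of the early arousal array ran from 53.2 to 63.6 units, with a median of 57.2. The 10 spots of the late torpor array ran from 65.2 to 76.9 units, with a median of 71.2. The 10 spots of the post-reproduction array ran from 135.8 to 146.2 units, with a median of 138.4. No spot range of this probe overlapped that of another stage.

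The shorter probe, a separate set of spots for the same RNA, gave the same order. Its 9 kept spots ran from 29.5 to 35.9 units in early arousal, with a median of 31.9. Its 9 kept spots in late torpor ran from 36.5 to 47.3 units, with a median of 39.1. Its 10 spots in post-reproduction ran from 72.4 to 82.4 units, with a median of 76.8. Here too the 3 ranges of kept spots did not overlap, and the neighbouring stages closest to each other were early arousal and late torpor. The program had flagged 1 spot of this probe as an outlier in early arousal (64.1 units, above the kept ones) and 1 in late torpor (33.3 units, below them), and with these the ranges of early arousal and late torpor overlapped.

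Every spot of both probes lies at the same place on each array, so positions can be compared directly. Early arousal was the dimmer array at 9 of 9 positions of the longer probe and at 9 of 9 of the shorter one when set against post-reproduction. The ratio of early arousal over post-reproduction, before scaling, had a median of 0.413 for the longer probe (0.381 to 0.463) and of 0.424 for the shorter one (0.385 to 0.496). For late torpor over post-reproduction the medians were 0.514 and 0.520, with 10 of 10 and 9 of 9 positions dimmer in late torpor. Early arousal over late torpor gave 0.817 and 0.825, with 9 of 9 and 8 of 8 positions dimmer in early arousal. Positions on an array repeat the hybridisation of 1 pool and are not replicates of a stage.

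**Figure D1:**
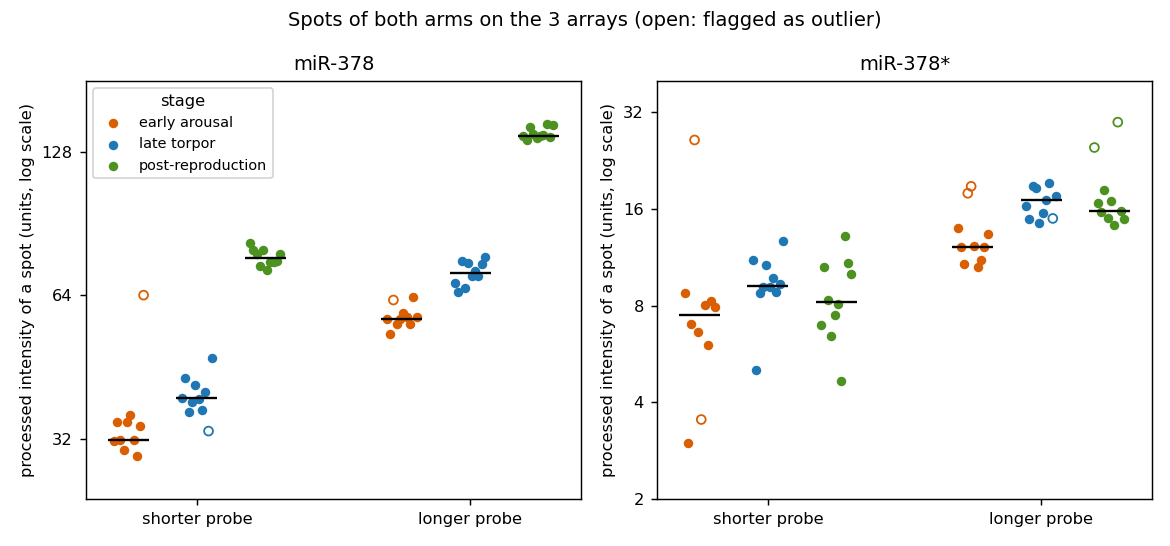
Processed intensity of each spot (log scale) of the shorter and longer probe of miR-378 (left) and miR-378* (right) on the early arousal, late torpor and post-reproduction arrays, before scaling between arrays. Filled points are kept spots, open points are spots flagged as outliers by the scanner program, and bars are medians of kept spots. The kept miR-378 spots of each probe separate by stage, while those of miR-378* in late torpor and post-reproduction overlap. With flagged spots, early arousal and late torpor also overlap on the shorter miR-378 probe.

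The scanner program's own summary over the spots of an entry ordered the stages alike. For miR-378 the early arousal array had 64.1 ± 5.13 units, the late torpor array 79.9 ± 6.12 and the post-reproduction array 155.1 ± 11.6, where the error is the program's own. For miR-378* it was 13.5 ± 2.27, 18.9 ± 2.22 and 17.6 ± 2.52 units in the same order, so late torpor and post-reproduction lay within the program's error of each other. The program called both arms detected on all 3 arrays.

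miR-378* was dim throughout. By the median of its kept spots it was dimmest in early arousal, as was miR-378, but its late torpor and post-reproduction spots were not set apart. On the longer probe the 8 kept spots of the early arousal array ran from 10.5 to 13.9 units, with a median of 12.2. The 9 kept spots of the late torpor array ran from 14.4 to 19.3 units, with a median of 17.1. The 8 kept spots of the post-reproduction array ran from 14.2 to 18.4 units, with a median of 15.7. The kept spots of early arousal did not overlap with those of either other stage, while late torpor and post-reproduction did overlap. With the flagged spots included, which had 17.9 and 18.8 units in early arousal, all 3 ranges overlapped. At the positions kept on both arrays, early arousal was dimmer than post-reproduction at 6 of 6 and dimmer than late torpor at 7 of 7, and late torpor was dimmer than post-reproduction at 3 of 7. Every kept spot of this probe was marked well above background, but all were below the 22.2 to 26.6 units of the viral entry, so detection at this level does not show that miR-378* itself was present.

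The shorter miR-378* probe was at the edge of detection. None of its 8 kept spots was well above background in early arousal, 9 of 10 were in late torpor and 2 of 10 were in post-reproduction. Its medians were 7.45, 9.23 and 8.20 units in that order, and the spot ranges of the 3 arrays overlapped. It was left out of the values of miR-378* for this reason. Its scaled log2 differences of -0.14 ± 0.22 for early arousal minus post-reproduction and 0.34 ± 0.18 for late torpor minus post-reproduction (± SE from spots) lay within their SE of the longer probe's values given below.

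For comparison between arrays, the 250 probes that every array detected were used, and their 75th percentile was subtracted from each array's log2 values. A difference is one of scaled log2 values, and its standard error (SE) comes from spots only. The rule of size asks for 3 things, a log2 difference of 1 or more in size (2-fold), a difference above 2 times the SE, and agreement in sign between all measured probes. Scalings shift all miRNAs of an array alike, so small differences can change sign with them, and values are given beside the median over all measured miRNAs.

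In early arousal against post-reproduction, miR-378 had scaled log2 values of -3.02 and -1.94, a difference of -1.08 ± 0.02. Its probes gave -1.10 ± 0.03 (longer) and -1.05 ± 0.04 (shorter). Of the 135 measured miRNAs it had the lowest difference, against a median of 0.06 over all of them, and it was the only one lower past the rule (0.741% of those measured, with 2.96% higher and 3.7% in either direction). The next to lowest, miR-500, lay just outside the rule at -0.98 ± 0.08, and with outlier spots kept it was the lower of the pair (-1.04, against -1.03 for miR-378). These values chose the member, and nothing is read from that count or rank. miR-378* had a difference of -0.22 ± 0.07, and 32 measured miRNAs had a lower one.

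In late torpor against post-reproduction, miR-378 had scaled log2 values of -2.71 and -1.94, a difference of -0.77 ± 0.03, which is 1.70-fold lower (95% interval from spots 1.64 to 1.76). That interval leaves out the processing, with which the difference ran from -1.16 to -0.37, and any spread between animals. miR-378 was short of the rule, as were all other measured miRNAs on the lower side (0%, with 2.22% higher past it). Only miR-200b, an epithelial miRNA, had a lower difference, and the median over all measured miRNAs was 0.13. miR-378* had scaled log2 values of -4.37 and -4.65, a difference of 0.28 ± 0.07, near the middle of the measured miRNAs, of which 87 were lower. The arms thus lay on opposite sides of 0 here, although the side of miR-378* turned with the scaling (-0.12 with the array scaled on the deposited intensity of all probes).

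Within hibernation, early arousal against late torpor, both arms were lower in early arousal. miR-378 had a difference of -0.31 ± 0.03 and miR-378* one of -0.50 ± 0.07, against a median of -0.09 over all measured miRNAs. Of the measured miRNAs, 20 lay below miR-378 and 10 below miR-378*. Neither arm was past the rule of size, which 1.48% of measured miRNAs passed in the lower direction and as many in the higher one.

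**Figure D2:**
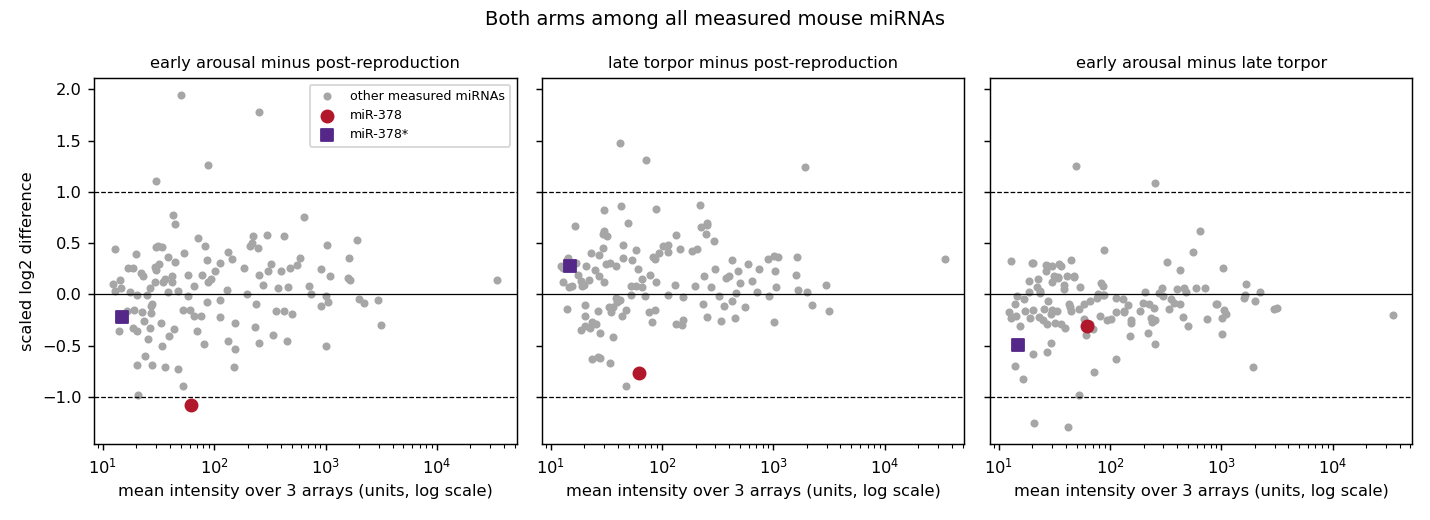
Scaled log2 difference of each of the 135 measured mouse miRNAs (vertical axis) against its mean intensity over the 3 arrays (horizontal axis, log scale) in the 3 comparisons. The circle is miR-378, the square is miR-378*, and dashed lines mark the size of 1 used by the rule. miR-378 is the lowest point in early arousal minus post-reproduction and the next to lowest in late torpor minus post-reproduction, while miR-378* lies within the bulk.

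The difference between the arms' changes, called the arm gap, was computed as the log2 difference of miR-378 minus that of miR-378*. A factor that scales a whole array cancels in it, so scalings that shift whole arrays leave it as it is. The arms were chosen for this inequality on these same arrays, so the gap describes that choice and supports nothing beyond it. It also rests on a miR-378* probe whose kept spots were all dimmer than the viral entry, so no fold between the arms is given. The gap was -0.85 ± 0.07 in early arousal minus post-reproduction, -1.04 ± 0.07 in late torpor minus post-reproduction and 0.19 ± 0.08 in early arousal minus late torpor. These comparisons share arrays, and the third gap is the difference of the first pair.

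Another 11 hairpins had both arms measured, and they show how far arms differ on these arrays. Their gaps in early arousal minus post-reproduction ran from -0.73 for miR-31 minus miR-31* to 0.69 for miR-574-5p minus miR-574-3p, with a median of 0.11. For late torpor against post-reproduction the range was from -0.77 (miR-31) to 0.67 (miR-574-5p), with a median of 0.10. In both of these, the gap of miR-378 was the lowest of the 12 hairpins and the largest in size. It was also the lowest under each alternative in which the gaps of all hairpins were computed. The arms were chosen for their unequal change on these arrays, so nothing is read from this rank or from its recurrence. With the scaling used here, early arousal minus post-reproduction had gaps of -0.85 ± 0.07 for miR-378 and -0.73 ± 0.04 for miR-31. Scalings that shift whole arrays leave every gap as it is, so they could not have changed this order. The margin to miR-31 was smallest with outlier spots kept in early arousal minus post-reproduction (-0.77, against -0.69 for miR-31), quantile normalization (-0.83, against -0.77) and the negative control median subtracted (-0.82, against -0.75). The gaps of the others in early arousal minus late torpor ran from -0.33 (miR-140) to 0.40 (miR-340-5p) and 3 of them were larger in size than that of miR-378. Among the arms of these other hairpins, miR-574-3p, miR-29c* and miR-142-5p had mean intensities (20.4, 18.9 and 16.3 units) below the viral entry. The limit on detection given for miR-378* holds for them too.

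The hairpin nearest to miR-378 in this respect reached its gap the other way round. miR-31 had differences of 0.04 in early arousal and 0.09 in late torpor against post-reproduction, values that fell below 0 under other scalings, and its star strand miR-31* had 0.77 and 0.86, above 0 under each of them. In the miR-378 hairpin the arm without the star lay farther from the median of all measured miRNAs. Relative to that median miR-378 was at -1.14 and miR-378* at -0.28 in early arousal minus post-reproduction, and at -0.90 and 0.15 in late torpor minus post-reproduction. Of the other 11 hairpins, 6 had arms on the same side of 0 in early arousal minus post-reproduction, and 9 had so in each of the other comparisons, with the scaling used here.

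**Figure D3:**
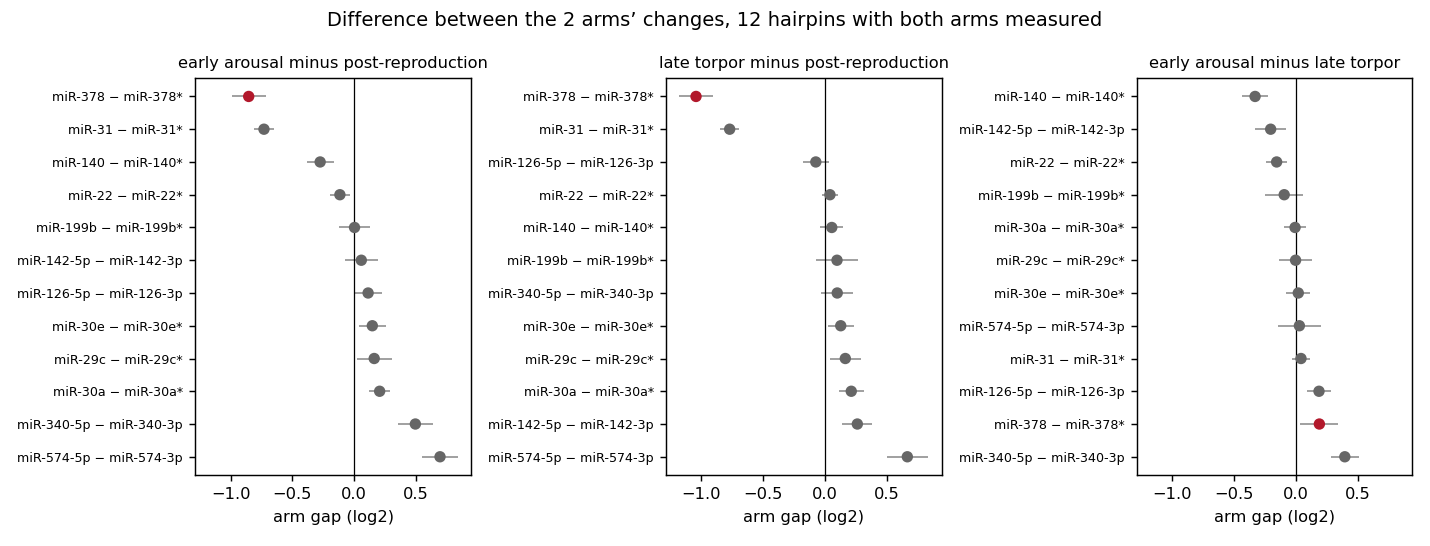
Arm gap (log2 difference of the first arm minus that of the second) of the 12 hairpins with both arms measured, in the 3 comparisons, ordered by value, with bars for the 95% interval from spots. The red point is miR-378 minus miR-378*, which stands first at -0.85 and -1.04 in the comparisons with post-reproduction and next to last at 0.19 in early arousal minus late torpor.

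The size of the miR-378 difference depended on the processing. The normexp setting used the local background in place of the fitted one and added an offset of 50 units to every spot, which compresses dim entries. The parts of background and offset were not separated. With normexp the difference was -0.52 in early arousal and -0.37 in late torpor against post-reproduction, and the arm gaps were -0.58 and -0.57. miR-378 was in the first of these comparisons the lowest measured miRNA there too, with a median over all of 0.08. Across all other settings its difference ran from -1.45 to -1.03 in that comparison, in which normexp moved it most. In late torpor minus post-reproduction the scaling on the deposited intensity of all probes (-1.16) moved it about as far as normexp did, and in early arousal minus late torpor scaling moved it farther, to between -0.56 and -0.10, against -0.15 with normexp. Between late torpor and post-reproduction it came past the rule with that scaling, with strict detection (-1.003) and with the program's summary (-1.08). Scaling moved the median of all measured miRNAs by up to 0.39 in size. Relative to that median, miR-378 was at -1.14 in early arousal and -0.90 in late torpor under each scaling that shifts whole arrays.

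**Figure D4:**
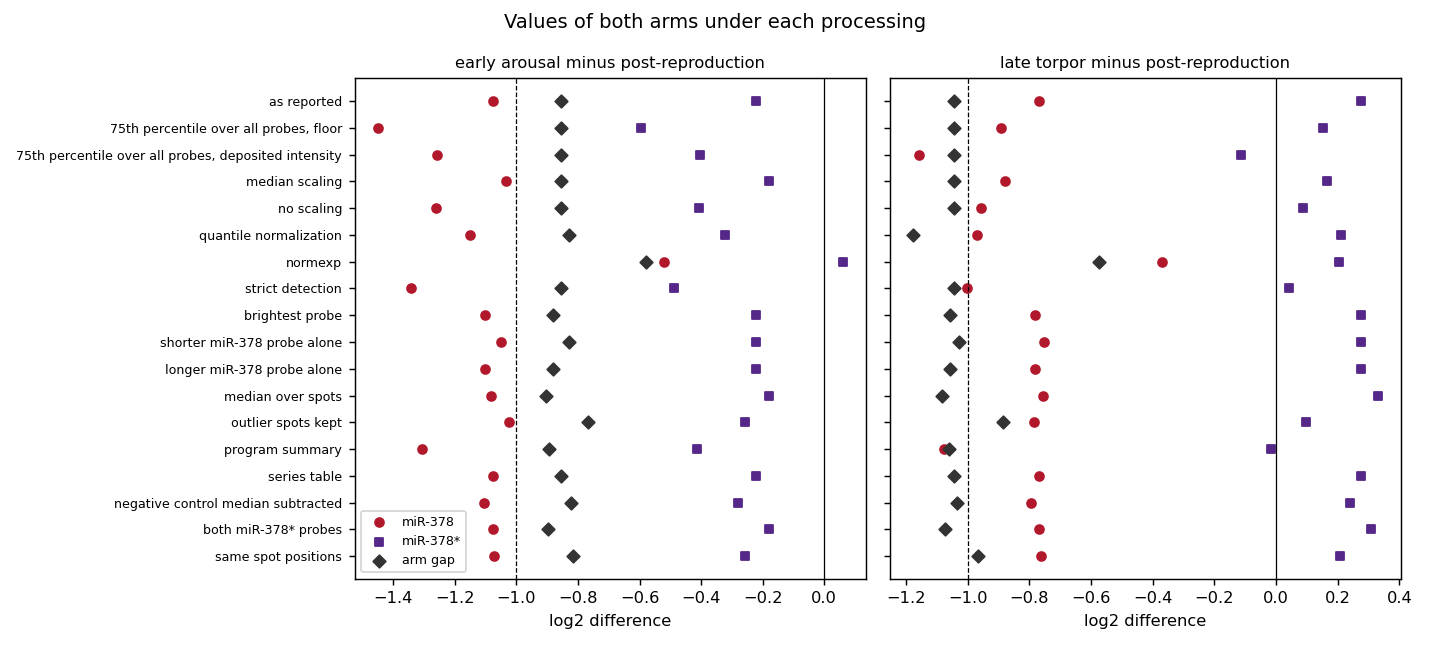
Log2 difference of miR-378 (circles) and miR-378* (squares) and the arm gap (diamonds) under each processing, in early arousal minus post-reproduction (left) and late torpor minus post-reproduction (right). The dashed line marks -1 and the solid line 0. miR-378 and the gap stay below 0 under each of them, with normexp nearest to 0, while miR-378* crosses 0.

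The miRNAs nearest in pattern to each arm were found by the distance between the 3 stage values, each centred on its own mean. With 3 arrays this is a description of shape only. For miR-378 they were miR-186 (distance 0.28), miR-222 (0.29), miR-200b (0.35) and miR-184 (0.35), against a median distance of 0.85 over the other measured miRNAs. All 4 were lower in both hibernation stages than in post-reproduction. In early arousal they ran from -0.73 for miR-200b to -0.69 for miR-186, and in late torpor from -0.89 for miR-200b to -0.30 for miR-184. None was as low in early arousal as miR-378. With normexp only 1 of the 4 remained among the nearest.

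For miR-378* the nearest were miR-340-3p (distance 0.07), miR-148b (0.08), miR-142-3p (0.11) and miR-150 (0.14), against a median of 0.38. miR-142-3p and miR-150 are known as miRNAs of blood leukocytes, but members of the leukocyte list given below did not move together. The mean intensity of miR-150 (13.9 units) was below the viral entry. All 4 were highest in late torpor, as was miR-378*, with differences of 0.24 (miR-148b) to 0.41 (miR-142-3p) from post-reproduction, but with the deposited intensity of all probes in the scaling only miR-142-3p stayed above 0 (0.02). miR-378 stood at the 127th place from miR-378*, with a distance of 0.79. With outlier spots kept, only 1 of the 4 remained among the nearest to miR-378*.

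**Figure D5:**
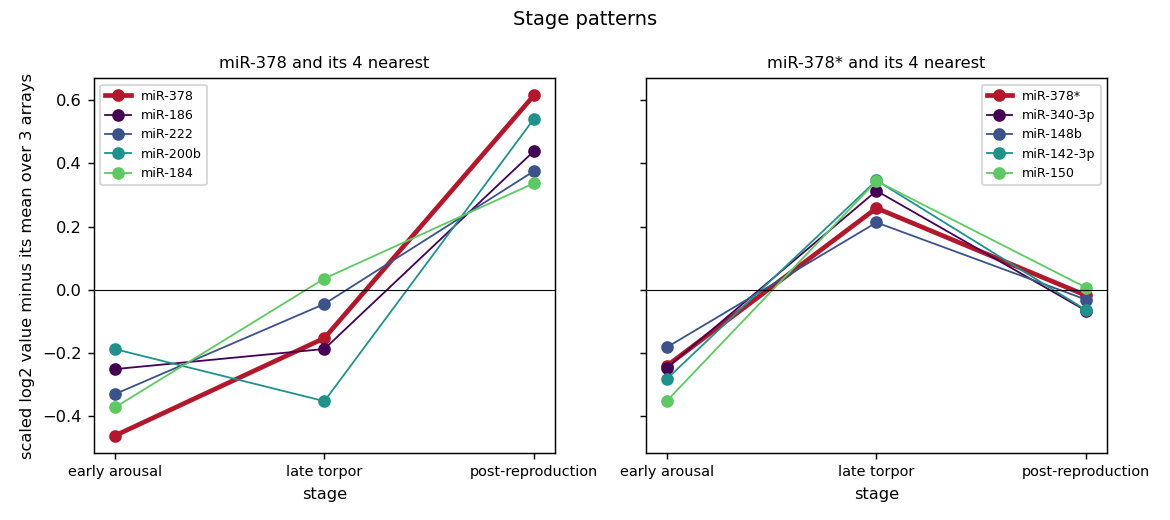
Scaled log2 value of miR-378 (left) and miR-378* (right), thick lines, and of the 4 measured miRNAs nearest to each in pattern, at each stage, minus the mean over the 3 arrays. The miR-378 panel has its highest values in post-reproduction and the miR-378* panel in late torpor.

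In the comparisons with post-reproduction, no other measured miRNA of the lipid and energy metabolism list had a difference as large as that of miR-378. The values on these arrays chose miR-378, so nothing is read from its place in the list. Beside the arms of miR-378, 6 of 10 listed miRNAs were measured, and in early arousal minus post-reproduction 4 of these were lower and 2 higher, with a median of -0.08, against 0.06 over all measured miRNAs. miR-27a, which acts on fat cell formation, was at -0.53. miR-103 and miR-107, which lie in introns of pantothenate kinase genes and act on insulin sensitivity, were at -0.32 and -0.16. miR-33, in an intron of the sterol regulator Srebf2, was at 0.03, and miR-122 was the highest at 0.14, and without scaling both were below 0 (-0.15 and -0.04). Late torpor minus post-reproduction had 3 lower and 3 higher, with a median of -0.01 against 0.13 over all, and miR-122 was again the highest at 0.34 (-0.05 with the deposited intensity of all probes in the scaling). Within hibernation all 6 were lower in early arousal than in late torpor with the scaling used here, with a median of -0.21 against -0.09. That direction turned with the scaling, since miR-107 and miR-27b were above 0 with the median scaling (0.11 and 0.07), and with the deposited intensity of all probes so were miR-107, miR-27b and miR-122 (0.16, 0.12 and 0.0069), with a median of -0.0055 for the 6. None of the 6 was past the rule in any comparison.

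Among miRNAs of introns of protein-coding hosts, 21 of 30 listed were measured beside the arms of miR-378. In early arousal minus post-reproduction 8 were lower and 13 higher, with a median of 0.14 against 0.06 over all, from miR-186 at -0.69 to miR-452 (Gabre) at 1.103. miR-452 was the single one of them past the rule, on the higher side, where 2.96% of all measured miRNAs were, and it was under a size of 1 with all probes at the floor in the scaling (0.73), with their deposited intensity (0.92), without scaling (0.92), with normexp (0.46), with the program's summary (0.87) and with strict detection (0.84). Late torpor minus post-reproduction had 10 lower and 11 higher, with a median of 0.04 against 0.13, and miR-15b (Smc4) was the highest at 0.88. Without scaling these medians were -0.05 and -0.15. Host transcripts were not measured on these arrays, so Ppargc1b itself has no value here.

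Of 114 star strands on the array, 10 were measured, miR-378* among them. In early arousal minus post-reproduction the other 9 ran from -0.33 for miR-483* to 0.77 for miR-31*, with a median of 0.02, and in late torpor minus post-reproduction from -0.35 for miR-483* to 0.86 for miR-31*, with a median of -0.03, both below 0 without scaling (-0.17 and -0.22). miR-378* lay between these ends in both. In early arousal minus late torpor, where the median of the 9 was -0.09 (0.12 with the deposited intensity of all probes in the scaling), miR-378* was the lowest of the 10.

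In RNA of a whole tissue, fewer cells of a type and less RNA per cell cannot be told apart, and miR-378 is made in muscle and fat as well as in liver. Muscle miRNAs were near background, and all 7 listed were below the viral entry on each array. Detection at this level does not show that they were present. Of all 567 mouse entries, 143 were detected in post-reproduction, 152 in early arousal and 158 in late torpor. The dimmest spot called well above background had 10.7, 10.1 and 8.49 units in that order. The muscle counts had the same order, and whether they differ beyond it was not tested. None of the 7 listed was detected in post-reproduction, against 2 in early arousal and 3 in late torpor. miR-133b, the brightest of them, had a mean of 10.8 units on the early arousal array, of 21.4 on the late torpor array and of 8.76 on the post-reproduction array. The summed intensity of the list, over the brightest probe of each member, was 34.3, 59.4 and 29.8 units in the same order.

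The lists of other cell types moved as follows. The hepatocyte list was at a median of 0.16 in early arousal and 0.30 in late torpor against post-reproduction (-0.03 and -0.09 with the deposited intensity of all probes in the scaling, -0.05 and -0.0098 with the program's summary, and -0.22 and 0.18 with all probes at the floor). Its 7 measured members lay above 0 except miR-148a in early arousal (-0.01), with the scaling used here. The erythroid list, all 3 measured, was at 0.53 and 1.31. The leukocyte list, 6 of 7 measured, was at a median of -0.19 and 0.37, of which the first was 0.04 with normexp and the second -0.02 with the deposited intensity of all probes in the scaling. Its members did not move together, from -0.49 for miR-146a to 0.47 for miR-181a in early arousal and from -0.27 for miR-146a to 0.67 for miR-223 in late torpor. Endothelial miRNAs (4 of 4 measured) were at -0.11 and 0.02 and mesenchymal ones (4 of 5) at 0.02 and 0.03, with all of these below 0 without scaling. The part of cell makeup in the values of either arm was not tested.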

How the data were processed

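The members, the lists and the rule of size were chosen with earlier results of these data known. The authors read the deposited intensity values from the scans in Agilent Feature Extraction, version 9.5.3.1 in the submitters' processing notes. Per the file headers, a fitted spatial background was subtracted, local background subtraction was off, and no step made arrays comparable. The flags used here for detection and outliers are other deposited values of that software. In the series table deposited by the authors, each of 12493 spots per array had the scanner file's intensity (within a relative 0.0001), on a linear, uncentred scale, with medians of 1.05, 1.15 and 1.13 for early arousal, late torpor and post-reproduction.

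Control spots and spots flagged as outliers (398, 280 and 317 of 11540 in that order) were left out. Spots with no positive signal took the array's lowest well-above-background signal, which touched no spot of either arm. The log2 intensity was averaged over spots, then over probes detected on all arrays, after scaling on the 75th percentile. No spot for a miRNA was saturated. There is no test, since each stage had 1 array, and with so few arrays the precision is limited.

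Named miRNAs were the arms, the lowest and highest of each list, the 4 nearest in pattern to each arm and the hairpins with the highest and lowest gaps. Further ones (miR-27a, miR-103, miR-107, miR-33, miR-27b, miR-31*, miR-500) were named to show a list or a pair, with values seen. Besides miR-378*, the named miR-500, miR-483*, miR-150 and miR-33 had mean intensities below the viral entry (20.6, 18.5, 13.9 and 12.9 units). The mean of miR-152 (23.6 units) lay within the 22.2 to 26.6 units of that entry. Those of miR-340-3p, miR-186 and miR-452 (27.2, 27.8 and 29.7 units) lay just above it. These are means over the 3 arrays, so values of the latter on a single array can lie below the viral entry. Alternatives changed the scaling, the background (normexp, limma 3.58.1, offset 50), detection, and the summary of spots and probes. The calculation was tested on simulated spots.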

Additional observations from a re-analysis of the deposited data

How the results depend on the processing

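Under all 17 alternatives miR-378 stayed below 0 in each of the 3 comparisons, and so did the arm gap in both comparisons with post-reproduction. The alternatives are not separate checks, since the series table holds the scanner intensities and scalings that shift whole arrays cannot change the gap. The members were also chosen by values of these same arrays. With normexp miR-378 in early arousal minus post-reproduction (-0.52) and the gap in late torpor minus post-reproduction (-0.57) fell short of a size of 1. In that setting miR-378* turned to 0.060 in early arousal minus post-reproduction, and the gap turned to -0.0040 in early arousal minus late torpor. The offset compresses dim entries by construction, and its part was not separated from that of the changed background. The gap in late torpor minus post-reproduction was also under that size with outlier spots kept (-0.88) and at shared spot positions (-0.97, chosen after seeing the data). In late torpor minus post-reproduction miR-378 passed the rule with the deposited intensity of all probes (-1.16), strict detection (-1.003) and the program's summary (-1.08), and miR-378* was below 0 with the first (-0.12) and the last (-0.017); the cause was not tested. With outlier spots kept miR-378 was no longer the lowest measured miRNA in early arousal minus post-reproduction, behind miR-500. The number of miRNAs past the rule in early arousal minus post-reproduction was 10 with all probes at the floor and 2 with normexp, against 5. In late torpor minus post-reproduction it was 7 with the deposited intensity of all probes, 5 with strict detection and 1 with normexp, against 3. In early arousal minus late torpor it was 0 with normexp, against 4. The split of higher and lower in early arousal minus post-reproduction was 4 and 1 as reported, 2 and 8 with all probes at the floor, 3 and 3 without scaling, and 4 and 2 after quantile normalization. In late torpor minus post-reproduction it was 3 and 0 as reported, and 1 and 6 with the deposited intensity of all probes. Subtracting the negative control median and using both miR-378* probes, also chosen after seeing the data, changed no direction or side of the rule of either arm. No paired analysis was possible because each stage has 1 array.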

Other observations

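Beside miR-378, 4 of the 135 measured miRNAs were lower by at least 0.5 on the log2 scale in both hibernation stages than in post-reproduction, a limit chosen after the data were seen. miR-186, from an intron of Zranb2, was at -0.69 in early arousal and -0.63 in late torpor. miR-152, a relative of the hepatocyte miRNA miR-148a, was at -0.60 and -0.63, and miR-320, whose precursor is made without Drosha, was at -0.51 and -0.67. The mean intensity of miR-152 (23.6 units) was within the 22.2 to 26.6 units of the viral entry, so its detection does not show that it was present. miR-200b was at -0.73 and -0.89. miR-378 was the only one of the 5 with a difference of more than 0.1 in size between early arousal and late torpor on the lower side, at -0.31, while the others ran from -0.06 for miR-186 to 0.16 for miR-200b and miR-320, with the scaling used here.

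Spots that the scanner program flagged as outliers were few but lay to one side on some probes. On the longer miR-378* probe the flagged spots had 24.8 and 29.8 units in post-reproduction and 17.9 and 18.8 in early arousal, above every kept spot of their array, and 14.9 in late torpor, within the kept range. On the shorter miR-378 probe 1 flagged spot in early arousal had 64.1 units, against 35.9 for the highest kept spot, and 1 in late torpor had 33.3 units, against 36.5 for the lowest kept spot.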
